A study of Homo sapiens with 8 samples.

Results

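The glycolysis enzymes considered here are 15 genes named by symbol, from HK1 and HK2 at the first reaction to PKM at the last, and 7 of them are among the 3666 genes of the authors' deposited table. The listed enzymes are HK2, TPI1, PGK1, PGAM1, ENO1, ENO2 and PKM, and the other 8 (HK1, GPI, PFKL, PFKM, PFKP, ALDOA, ALDOC and GAPDH) are not listed. RNA came from MIA PaCa-2, an established wild-type human pancreatic ductal adenocarcinoma line, whose cells were sorted by how readily lactic acid crosses their membrane, a readout of metabolic rate, into a fraction with low permeability, PHLac-low, and one with high permeability, PHLac-high. For the sort all cells were briefly exposed to lactate medium, which was then washed out. All cells grew in RPMI with serum, pyruvate and 44 mM bicarbonate under 5% CO2, and no other treatment was given to either fraction. The sort was done in 4 repeats that each gave 1 library per fraction, so 4 PHLac-low and 4 PHLac-high libraries are compared in pairs. Nothing in the labels says whether the repeats came from separate cultures, so p-values measure the spread between these samples, which may be technical.

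Glycolysis splits glucose into pyruvate in a chain of enzyme reactions and yields ATP and NADH on the way. Pancreatic cancer cells often run it fast and release the product as lactic acid, which lactate dehydrogenase makes from pyruvate and monocarboxylate transporters carry across the membrane. Hexokinase, phosphofructokinase and pyruvate kinase catalyse the steps that are hardest to reverse, whereas the isomerases, mutase, kinase and enolase between them work close to equilibrium.

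Values are normalised counts, that is, reads divided by a size factor per library, and changes are differences of log2(normalised count + 1), PHLac-high minus PHLac-low, estimated with limma over all listed genes with the repeat as a block. The table holds no gene with a deposited adjusted p above 0.05, so being listed already means a difference between the fractions, and the test cannot show that a listed enzyme differs. Size factors ran from 0.755 to 2.09, and the lowest number of reads behind any value of a listed enzyme was 1533. Bulk RNA cannot tell fewer cells with a transcript apart from less transcript per cell. Of 8 markers that could describe the line, KRT19, a keratin of ductal cells, alone is listed, with values from 14890 to 22697 in PHLac-low and from 14790.3 to 24031 in PHLac-high. Of 8 fibroblast and immune markers, COL1A1, PTPRC, CD68 and CD14 are listed, with a summed level from 1615 to 3486 in the low fraction and from 1660.3 to 5337 in the high one. The sum rests mainly on CD68 and CD14, which rose by 0.55 and 0.47 on the log2 scale, while PTPRC fell by 1.36 and COL1A1 by 0.64. None of these 4 is at 0 in every library, and the part of these transcripts in the results was not tested.

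Of the 7 listed enzymes, 6 were higher and 1, ENO2, was lower in PHLac-high with the authors' size factors, but upper-quartile scaling turned TPI1 and ENO1 to slightly lower values. Of all listed genes, 58.7% passed as higher and 41.2% as lower (99.9% in either direction), so the members' counts carry no evidence of a difference. Over all listed genes, 2153 passed as higher and 1510 as lower, and with upper-quartile scaling 850 and 1510. The changes of the enzymes were small beside the table as a whole: their median absolute log2 change was 0.23, against 0.42 over all listed genes. Their median signed change of 0.23 lay beside a median of 0.25 over all listed genes, which upper-quartile scaling moved to 0.02. That scaling rests on the listed genes, which were selected for a difference, and it shifted their log2 change by a median of -0.22. It cannot tell which scaling gives the true direction of a gene with a small change. HK2 alone exceeded a log2 change of 0.5. No enzyme had PHLac-high values that all lay above, or all below, its PHLac-low values, whereas 36.7% of the listed genes did. Without the repeat block 0 of the 7 passed in limma, with adjusted p from 0.103 to 0.480, against 31.0% of all listed genes, and 0 had an unadjusted p under 0.05. With upper-quartile scaling 2 passed, HK2 and ENO2, against 64.4%.

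**Figure D1:**
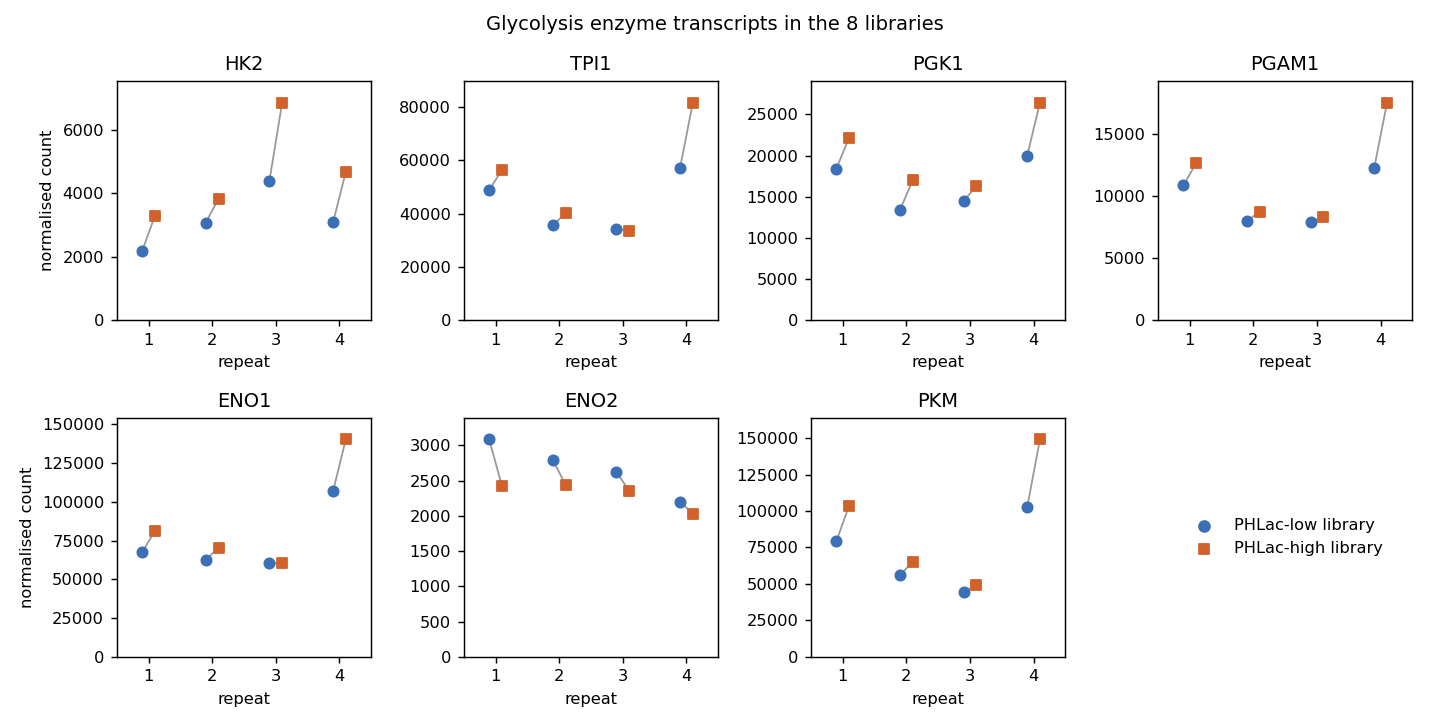
Normalised counts (vertical axis, from 0) of the 7 listed enzymes in each repeat (horizontal axis), with circles for PHLac-low, squares for PHLac-high and a line joining the libraries of a repeat. TPI1, PGK1, PGAM1, ENO1 and PKM are highest in repeat 4 in both fractions, HK2 is highest in repeat 3, and ENO2 is the enzyme whose squares lie under its circles in all 4 repeats.

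HK2 (Entrez 3099, chr2:74834127-74893359, GRCh38.p14) encodes hexokinase 2, which phosphorylates glucose on entry and can sit on the outer mitochondrial membrane. Its normalised counts in repeats 1 to 4 were 2175, 3071, 4379 and 3075 in PHLac-low and 3283, 3819.8, 6842 and 4662 in PHLac-high. Repeat 3 was the highest and repeat 1 the lowest in each fraction, and the fractions overlapped across repeats. Within repeats PHLac-high was higher each time, by 0.59, 0.31, 0.64 and 0.60 on the log2 scale, a fitted change of 0.54 ± 0.07 (SE, adjusted p = 0.000336). Upper-quartile scaling left 0.31 (adjusted p = 0.00205). In the authors' deposited table HK2 had an adjusted p of 1.42e-09, at rank 416 of 3666, the smallest among the enzymes. HK1, the other hexokinase of the list, is not listed. The 250 bases before the HK2 start (chr2:74833877-74834126, plus strand, RefSeq, GRCh38.p14) are shown because HK2 had the largest change, with capitals for the letters ACGTG or GCGTG on either strand, the core of the sequence that hypoxia-inducible factors bind.
HK2: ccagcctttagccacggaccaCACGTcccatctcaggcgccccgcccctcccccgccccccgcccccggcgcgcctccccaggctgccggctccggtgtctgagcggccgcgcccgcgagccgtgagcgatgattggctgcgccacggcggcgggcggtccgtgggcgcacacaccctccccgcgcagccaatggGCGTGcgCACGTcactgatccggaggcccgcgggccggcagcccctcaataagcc
This window holds 3 such matches, and 43.2% of 35116 windows of the same length in the RefSeq promoter table hold at least 1.

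TPI1 (Entrez 7167, chr12:6867420-6870948), the triosephosphate isomerase that interconverts the triose products of aldolase, was among the most abundant listed transcripts, at rank 17 of 3666. Its counts were 48856, 35636, 34099.6 and 57319 in PHLac-low and 56475, 40155, 33649 and 81673 in PHLac-high. The fractions overlapped, and repeats 1 and 4 were higher than repeats 2 and 3 in each. The log2 change was 0.21, 0.17, -0.02 and 0.51 in repeats 1 to 4, so repeat 3 showed no rise. The fitted change of 0.22 ± 0.08 (SE, adjusted p = 0.0257) was 0.35 after correction for GC content and length (adjusted p = 0.00311) and -0.01 with upper-quartile scaling (adjusted p = 0.955). It missed the threshold at 0.22 without repeat 1 (adjusted p = 0.0635), at 0.23 without repeat 2 (adjusted p = 0.067) and at 0.12 without repeat 4 (adjusted p = 0.0733). Its deposited adjusted p, 0.0447 in the authors' deposited table, ranked 3579 of 3666, near the edge of the listing.

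PGK1 (Entrez 5230, chrX:78104248-78129295) encodes phosphoglycerate kinase 1, which makes the first ATP of the pathway. Its counts were 18381, 13374, 14487 and 19985 in PHLac-low and 22151, 16996, 16242 and 26409 in PHLac-high. Every repeat was higher in PHLac-high, by 0.27, 0.35, 0.16 and 0.40, although the fractions overlapped across repeats. The fitted log2 change was 0.30 ± 0.06 (SE, adjusted p = 0.00185), and upper-quartile scaling left 0.07 (adjusted p = 0.308). The 250 bases before its start (chrX:78103998-78104247, plus strand, RefSeq, GRCh38.p14) are shown beside those of HK2, with the same letters in capitals.
PGK1: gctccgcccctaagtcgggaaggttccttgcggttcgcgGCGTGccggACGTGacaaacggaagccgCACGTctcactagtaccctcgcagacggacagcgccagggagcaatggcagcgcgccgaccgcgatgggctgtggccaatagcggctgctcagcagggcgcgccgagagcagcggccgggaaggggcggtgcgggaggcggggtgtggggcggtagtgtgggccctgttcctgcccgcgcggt
It also holds 3 matches. RefSeq gives 5 more windows for the listed enzymes that do not begin at the outermost start of their genes. A second for HK2 has 6 matches, some of which overlap, those for TPI1 have 0 and 2, and those for PGAM1 and PKM have 0. A window without a match says nothing beyond these letters in this stretch.

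PGAM1 (Entrez 5223, chr10:97426191-97433444), the phosphoglycerate mutase that moves the phosphate group within phosphoglycerate, had counts of 10832, 7966, 7913 and 12257 in PHLac-low and 12616, 8724, 8311 and 17479 in PHLac-high. Its log2 change was 0.22, 0.13, 0.07 and 0.51 in repeats 1 to 4, above 0 each time and by far the largest in repeat 4. The fitted change of 0.23 ± 0.08 (SE, adjusted p = 0.0145) fell to 0.14 without repeat 4 (adjusted p = 0.0322) and to 0.01 with upper-quartile scaling (adjusted p = 0.93).

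The enolases, which make phosphoenolpyruvate, differed in direction with the authors' size factors, although upper-quartile scaling put ENO1 just under 0 too. ENO1 (Entrez 2023, chr1:8861000-8878686), the broadly expressed form, had 67479.9, 62546, 60309.7 and 106730.5 in PHLac-low and 81116, 70495, 60304 and 140206 in PHLac-high. ENO2 (Entrez 2026, chr12:6914580-6923697), the form known from neurons and neuroendocrine cells, had 3082, 2790.3, 2621 and 2201 in PHLac-low and 2420.3, 2439, 2351 and 2029.7 in PHLac-high. ENO1 was level in repeat 3 and higher in PHLac-high by 0.27, 0.17 and 0.39 in repeats 1, 2 and 4, while ENO2 was lower in PHLac-high in all 4 repeats, by -0.35, -0.19, -0.16 and -0.12. The fitted log2 changes were 0.21 ± 0.07 for ENO1 (SE, adjusted p = 0.0161) and -0.20 ± 0.06 for ENO2 (SE, adjusted p = 0.012). In the authors' deposited table ENO1 had an adjusted p of 0.0329, at rank 3330 of 3666. ENO2 had 0.0443 there, at rank 3573, near the edge of the listing. The ENO1 change became -0.02 with upper-quartile scaling (adjusted p = 0.852) and 0.44 after correction for GC content and length (adjusted p = 0.000433). It missed the threshold at 0.19 without repeat 1 (adjusted p = 0.0734) and at 0.22 without repeat 2 (adjusted p = 0.0507). The ENO2 change was -0.43 with upper-quartile scaling (adjusted p = 0.00041), and it missed the threshold without repeat 1 (adjusted p = 0.0739) and after correction for GC content and length, which left -0.09 (adjusted p = 0.225).

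The ratio of the enolases within a library does not depend on the size factor. The ENO1 count was 21.9, 22.4, 23.0 and 48.5 times the ENO2 count in PHLac-low, taking repeats 1 to 4 in turn, and 33.5, 28.9, 25.6 and 69.1 times in PHLac-high. The ratio was higher in PHLac-high in every repeat, and the repeat 4 ratios exceeded all others in both fractions. ENO1 and ENO2 were listed with opposite directions, so a higher mean ratio in PHLac-high follows from the listing and is no separate evidence. A ratio shows unequal change and not which of the enolases moved. ENO2 and TPI1 lie on the same strand of chromosome 12, with 43.6 kb between the end of TPI1 and the start of ENO2. The change of TPI1 exceeded that of ENO2 by 0.56, 0.37, 0.14 and 0.63 in repeats 1 to 4, and these genes too were listed with opposite directions.

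The upstream sequences of the enolases are given for that contrast in the ratio, which follows from the listing. Both are 250 bases from RefSeq (GRCh38.p14) that end just before the gene's start, ENO1 at chr1:8878687-8878936 on the minus strand and ENO2 at chr12:6914330-6914579 on the plus strand, with the same letters in capitals.
ENO1: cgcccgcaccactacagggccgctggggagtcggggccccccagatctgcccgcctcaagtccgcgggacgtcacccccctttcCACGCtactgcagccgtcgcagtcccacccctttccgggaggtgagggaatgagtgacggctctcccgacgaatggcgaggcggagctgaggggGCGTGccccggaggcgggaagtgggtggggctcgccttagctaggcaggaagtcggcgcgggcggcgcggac
ENO2: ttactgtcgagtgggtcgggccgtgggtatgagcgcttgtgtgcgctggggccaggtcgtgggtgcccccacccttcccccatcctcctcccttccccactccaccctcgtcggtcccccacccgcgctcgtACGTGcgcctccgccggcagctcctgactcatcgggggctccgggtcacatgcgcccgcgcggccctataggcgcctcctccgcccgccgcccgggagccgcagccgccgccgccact
ENO1 has 2 matches and ENO2 has 1, and the GC contents of these windows are 72.0% and 74.0%. CACGTG, the E-box bound by MYC, contains ACGTG and occurs in 6.34% of all windows. It is in none of the windows printed here, and the second HK2 window (chr2:74834920-74835169, plus strand) holds 2. Each CACGTG reads ACGTG on both strands and so counts as 2 of the 6 matches in that window.

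PKM (Entrez 5315, chr15:72199029-72231591) encodes pyruvate kinase M, which makes pyruvate and the last ATP of the pathway and is spliced to an M1 or an M2 form that a count per gene cannot separate. Its counts were 79221, 56059, 44167 and 102576 in PHLac-low and 103565, 65123, 49334 and 149128 in PHLac-high. PHLac-high was higher in every repeat, by 0.39, 0.22, 0.16 and 0.54, and the fitted log2 change was 0.33 ± 0.07 (SE, adjusted p = 0.00309). It became 0.10 with upper-quartile scaling (adjusted p = 0.205) and 0.58 after correction for GC content and length.

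**Figure D2:**
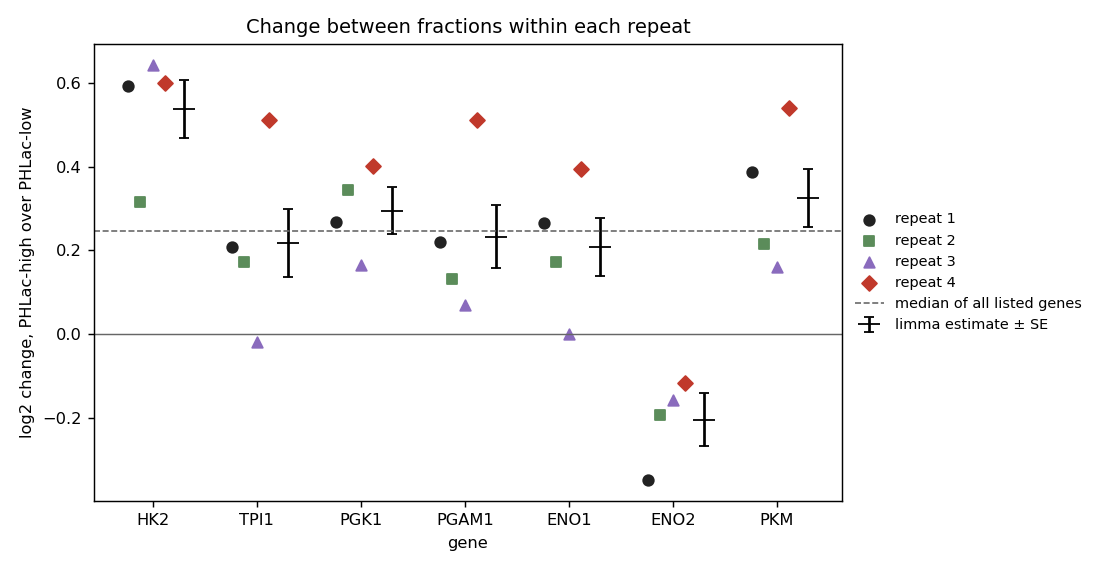
Log2 change of PHLac-high over PHLac-low (vertical axis) of each enzyme in repeats 1 to 4, 1 symbol each, with the limma estimate and its SE beside them and a dashed line at 0.25, the median of all listed genes. For TPI1, PGK1, PGAM1, ENO1 and PKM the repeat 4 symbol is the highest and the repeat 3 symbol the lowest, and HK2 and ENO2 do not show that order.

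The enzymes, which were listed for a difference between fractions, also differed between repeats. In a limma F test of the repeats 7 of 7 passed, against 57.6% of all listed genes. The adjusted p ran from 0.000236 for PKM to 0.0276 for ENO2. The authors listed genes by fraction, but all 7 missed the fraction threshold without the repeat block. Their listing may therefore rest on a small spread within repeats. The F test is scaled by that same spread, so the listing may not be independent of it. Neither the 57.6% nor the shares of listed genes below were matched to the enzymes for level or size of change. ENO2 did not pass without repeat 4 (adjusted p = 0.361), without repeat 1 (adjusted p = 0.05003), without the mean-variance trend (adjusted p = 0.0659) or after correction for GC content and length (adjusted p = 0.062). The other 6 passed in each of the 9 alternatives run. PKM varied by 2.32 times between the lowest and the highest PHLac-low library and by 3.02 times among PHLac-high libraries, while its fitted fold between the fractions was 1.25. For ENO1 these ratios were 1.77 and 2.32 beside a fold of 1.16, and for HK2 2.01 and 2.08 beside 1.45. Repeats took a median of 85.8% of the variation of the enzymes over the 8 libraries and fractions took 9.31%, against medians of 42.0% and 50.6% over all listed genes. Repeats took more than fractions and residual together for 7 of 7 enzymes and for 40.0% of all listed genes. With upper-quartile scaling this held for 6 enzymes, with repeat shares from 82.8% to 97.9%, and ENO2 fell to 37.8%.

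**Figure D3:**
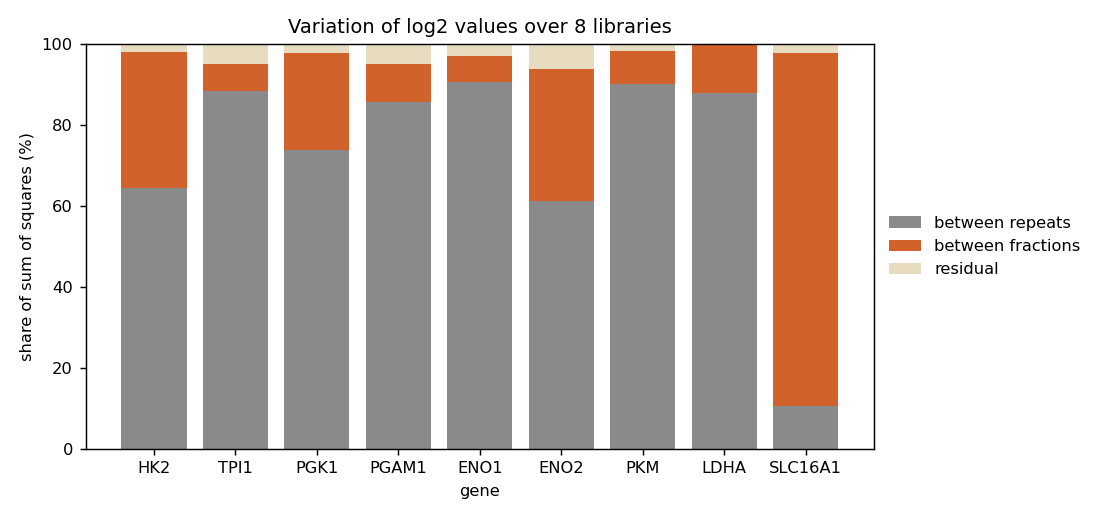
Share of the sum of squares of log2 values (vertical axis, %) taken by repeats, by fractions and by the residual for the 7 enzymes, LDHA and SLC16A1. The repeat share runs from 61.2% for ENO2 to 90.7% for ENO1 among the enzymes, is 88.0% for LDHA, within that range, and 10.7% for SLC16A1.

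In TPI1, PGK1, PGAM1, ENO1 and PKM the change between fractions also followed the repeats: it was largest in repeat 4 and smallest in repeat 3 in all 5 (5 of 7 enzymes, against 15.4% of all listed genes). This order was chosen from these same values, and the 5 genes follow each other with r from 0.87 to 0.99. The comparison with 15.4% is therefore a description and no test. The direction was the same in every repeat for 5 of 7 enzymes, against 96.1% of all listed genes, and the exceptions were TPI1 and ENO1 in repeat 3. The PHLac-low library of repeat 3 was the deepest (size factor 2.09), and the median log2 change of all listed genes was 0.22, 0.18, 0.17 and 0.20 in repeats 1 to 4. The part of depth in this order was not tested. The 7 enzymes together took 2.09%, 1.64%, 1.51% and 2.53% of the summed normalised counts of all listed genes in PHLac-low, taking repeats 1 to 4 in turn. In PHLac-high they took 2.12%, 1.61%, 1.37% and 2.84%. This share, which does not depend on the size factors, was higher in PHLac-high in repeats 1 and 4 and lower in repeats 2 and 3.

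Over the 8 libraries, which share repeats and fractions, TPI1, PGK1, PGAM1, ENO1 and PKM followed each other with Pearson r from 0.87 to 0.99. HK2 had r from -0.26 to -0.02 with these 5 genes and ENO2 had r from -0.75 to -0.54. The 6 listed genes outside the enzymes with the highest median r to them were TUBB4B (0.98), CALM2 (0.97), HN1 (0.97), TRIP13 (0.97), TUBA1C (0.97) and CCT7 (0.97). Their likeness is to TPI1, PGK1, PGAM1, ENO1 and PKM: with HK2 their r ran from -0.18 to -0.06 and with ENO2 from -0.68 to -0.57. TUBB4B and TUBA1C encode tubulins, CALM2 a calmodulin and CCT7 a subunit of the chaperonin that folds tubulin and actin. LDHA, the lactate dehydrogenase subunit next in the pathway, was at place 14 with a median r of 0.96. LDHA counts were also highest in repeat 4 (43707 in PHLac-low and 65383 in PHLac-high) and lowest in repeat 3 (14028 and 18303).

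Levels between genes were compared per kilobase of the longest coding transcript in GENCODE release 29. In PHLac-low the order of mean counts per kilobase was ENO1 (31670.1 ± 9317), PKM (25950 ± 9519), TPI1 (24945 ± 6290.3), PGAM1 (5324 ± 1181), PGK1 (3388 ± 642), ENO2 (946 ± 130.2) and HK2 (550.04 ± 157; SD, n = 4 each). The neighbours ENO1, PKM and TPI1 overlapped in their ranges. PGAM1 (from 4324) lay above PGK1 (to 4089), and ENO2 (from 779) above HK2 (to 759). In PHLac-high the means kept this order, and ENO2 (718 to 863) fell within the range of HK2 (569 to 1185). Compared within libraries, PGAM1 exceeded PGK1 in 8 of 8. ENO1 exceeded PKM in 6 of 8, PKM exceeded TPI1 in 6 of 8, and ENO2 exceeded HK2 in 6 of 8, with the exceptions for ENO2 in PHLac-high repeats 3 and 4. These orders depend on the transcript length used, which was 4887 bases for PGK1 and 1830 for PGAM1. Before division by length PGK1 had the higher mean count in both fractions (16557 against 9742 in PHLac-low). HK2 likewise had a higher mean count than ENO2 in both (3175 against 2674 in PHLac-low). Pseudogenes named after the gene are annotated for PGAM1 (13), PKM (5), ENO1 (4), TPI1 (4), PGK1 (2) and HK2 (1), and how reads shared with them were counted is not given in the sources used here.

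Around the pathway, 101 genes in 8 lists were considered, and 23 are listed. With the authors' size factors PHLac-high had the higher level for 15 and the lower for 8. Upper-quartile scaling changed the direction of 1, PSAT1. Among other isoenzymes of the same steps 4 of 12 are listed, 2 higher and 2 lower. HKDC1, a further hexokinase, rose by 0.41 ± 0.06 (SE), with counts highest in repeats 2 and 3 rather than in repeat 4. BPGM, the bisphosphoglycerate mutase, rose by 0.66 ± 0.10 and the muscle enolase ENO3 fell by 0.68 ± 0.20. ENO3 shared only its direction with ENO2, at mean counts of 185 ± 56 (SD, n = 4) in the low fraction and 124 ± 58.5 in the high one. It changed most in repeat 4 (-1.43), where ENO2 changed least (-0.12). GAPDHS, the sperm form of glyceraldehyde-3-phosphate dehydrogenase, fell by 0.41 ± 0.12, and correction for GC content and length left -0.25 (adjusted p = 0.0786). Without repeat 4 the ENO3 change was -0.43 (adjusted p = 0.0127).

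Of 11 glucose carriers 3 are listed. SLC2A1, which encodes GLUT1, rose by 0.23 ± 0.07 (SE), and its change was 0.01 with upper-quartile scaling. SLC2A3 (GLUT3) fell by 0.30 ± 0.07 and SLC2A10 by 0.52 ± 0.13, and both were lower in PHLac-high in all 4 repeats. SLC2A3 counts in repeat 4 were 2440.3 in PHLac-low and 1823 in PHLac-high, below the 5090.1 to 7686 of the other repeats, the opposite of the order seen for ENO1 or PKM.

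Of 16 regulators of glycolytic flux 5 are listed, 3 higher and 2 lower. PFKFB3, the kinase that makes the activator of phosphofructokinase, rose by 0.88 ± 0.07 (SE), more than any listed enzyme of the pathway itself. MYC, a transcription factor with glycolysis genes among its targets, rose by 0.59 ± 0.06, and MLXIPL, the glucose-sensing factor ChREBP, fell by 0.67 ± 0.08, and correction for GC content and length left -0.25 (adjusted p = 0.0163). TIGAR, a phosphatase that lowers glycolytic flux, rose by 0.39 ± 0.06, and ARNT, the partner of the hypoxia-inducible factors, fell by 0.34 ± 0.06. MYC counts lay between 17677 and 20492.5 in PHLac-low and between 27599.6 and 29244 in PHLac-high, with no overlap, and the F test between repeats gave an adjusted p of 0.49.

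Of 24 genes for the fate of pyruvate and lactate 7 are listed, and all 7 were higher in PHLac-high, with a median log2 change of 0.41. Of all listed genes 58.7% were called higher, and their median was 0.25. PDP1, the phosphatase that switches pyruvate dehydrogenase on, rose by 1.02 ± 0.17 (SE), by 1.37, 1.13 and 1.32 in repeats 1 to 3 and by 0.28 in repeat 4. LDHA rose by 0.48 ± 0.05, and MPC1, a subunit of the mitochondrial pyruvate carrier, by 0.43 ± 0.09. SLC16A1, the lactate transporter MCT1, rose by 0.41 ± 0.05 with no overlap between the fractions, and it did not pass the test between repeats (adjusted p = 0.182). With upper-quartile scaling LDHA was at 0.26 (adjusted p = 0.00181) and SLC16A1 at 0.18 (adjusted p = 0.0159). MPC1 missed the threshold at 0.20 (adjusted p = 0.0949), and also after correction for GC content and length (0.21, adjusted p = 0.0858). ME1, the malic enzyme, went from 0.23 to 0.01 with that scaling.

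Few genes of the side branches are listed. The pentose phosphate list had 1 of 9, H6PD, which fell by 0.38 ± 0.07 (SE) and was at -0.24 after correction for GC content and length (adjusted p = 0.00927). The glycogen and hexosamine list had 1 of 15, UAP1, which rose by 0.61 ± 0.07. The serine and glycerol list had 2 of 8: PSAT1 rose by 0.22 ± 0.05 and turned to -0.01 with upper-quartile scaling and 0.06 after the GC content and length correction (adjusted p = 0.4), and GPD1L fell by 0.25 ± 0.07. Of 6 gluconeogenesis genes 0 are listed.

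Of 20 hypoxia targets outside glycolysis 7 are listed, 6 higher and 1, INSIG2, lower, with a median log2 change of 0.36 beside 0.25 over all listed genes. KDM3A turned to -0.01 with upper-quartile scaling. Their summed level ran from 12248 to 13323 in the low fraction and from 15909 to 17446 in the high one. NDRG1 rose by 0.89 ± 0.09 (SE), ANGPTL4 by 0.51 ± 0.09 (0.85 after the GC content and length correction) and EGLN1, the oxygen-sensing prolyl hydroxylase, by 0.47 ± 0.06. NDRG1 was lowest in repeat 4 in both fractions (785 and 1190.3), where ENO1 and PKM were highest. Of the same list, EGLN1 (2987 and 3911), ERO1A (2980 and 3657) and KDM3A (2585 and 2959) were highest in repeat 4 in both fractions. Of 12 heat shock and immediate early genes, which respond to handling of cells, 9 are listed, 7 higher and 2, JUNB and DUSP1, lower. Since listing was by the fraction difference, and 58.7% of all listed genes were called higher, neither this count nor that of the hypoxia targets sets its list apart. These heat shock and immediate early genes, chosen with earlier results known, had a median log2 change of 1.28, against 0.25 over all listed genes. Their summed level ran from 79735 to 124325 in the low fraction and from 130482 to 195565 in the high one. HSPA1A, an inducible heat shock gene, rose by 2.23 ± 0.17 (SE; 2.87, 2.48, 1.89 and 1.67 in repeats 1 to 4), HSPA1B by 2.23 ± 0.18 and HSPA6 by 5.81 ± 0.54, and their reads cannot be divided with certainty among near-identical copies. The part of these transcripts in the change of the enzymes was not tested. In repeat 4 TPI1, PGK1, PGAM1, ENO1 and PKM changed most, and so did FOSB among these transcripts (0.41). HSPA1A, HSPA1B, HSPA6, DNAJB1, ATF3, JUN and JUNB changed least in repeat 4, and DUSP1 changed least in repeat 2.

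**Figure D4:**
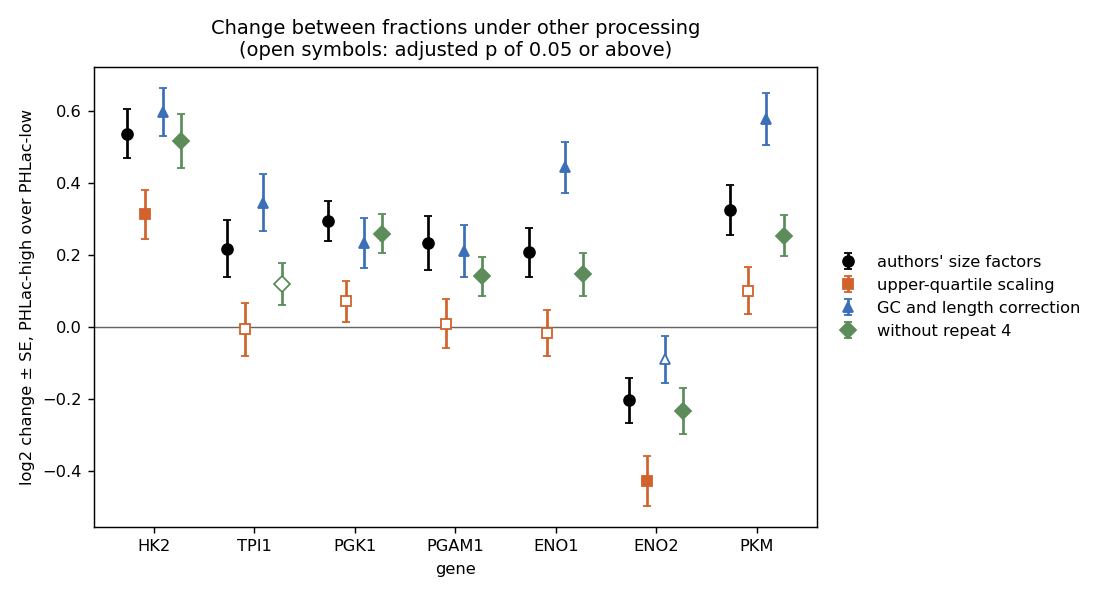
Log2 change ± SE of the 7 enzymes (vertical axis) under 4 settings: size factors as deposited, upper-quartile scaling, correction for GC content and length, and repeat 4 left out, with open symbols where the adjusted p was 0.05 or above. HK2 is lowest, at 0.31, with upper-quartile scaling, TPI1 and ENO1 cross 0 with upper-quartile scaling, and ENO2 stays below 0.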

How the data were processed

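mRNA-selected, dUTP-stranded, paired-end RNA-seq libraries were made from sorted cells, per the labels' protocols. The submitters' processing notes name STAR, SAMtools, Subread, DESeq2 and the build hg38, with no role or version. Normalised counts are a signal that the authors deposited: 100% of the values in each library were whole multiples of 1 step (within 0.01 read), as reads divided by 1 size factor would be. The log2 fold changes and the adjusted p-values are the authors' deposited values, and how the p-values were adjusted is not given in the sources used here. The table holds 3666 genes and none with an adjusted p-value above 0.05. Reads in listed genes ran from 8979276 to 23176205 per library, which is not the full depth. No per-sample column was left unmatched.

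Here, log2(normalised count + 1) was fitted over all 3666 genes with limma 3.58.1 (R 4.3.3), with fraction and repeat as terms, a mean-variance trend and Benjamini-Hochberg adjustment at 0.05. A moderated F test of the repeat terms came from the same fit. The series description states that the samples are paired. Libraries of the same repeat deviated together from their group means (r across genes from 0.53 to 0.76, against at most 0.27 between repeats). Shares of variation are sums of squares of the balanced layout. The main fit was also run on simulated counts in which few genes changed. Nearly all genes pass in this selected table, so that run does not vouch for the p-values given here. Alternatives were no block, a pseudocount of 0.1, upper-quartile scaling over listed genes, a mean of at least 100 normalised counts, no trend, each repeat left out, and lowess correction (span 0.3) for GC content and length of the longest GENCODE release 29 transcript, found for 3520 genes (96.0%). The members and gene lists were chosen with earlier results of these data known. Named genes are all 15 members, LDHA, SLC16A1, up to 3 listed genes per list with the largest change, and the 6 genes with the highest median r to the listed members. Other genes are named where a count or contrast needed them. Promoter windows and locations are from RefSeq on GRCh38.p14.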

Additional observations from a re-analysis of the deposited data

Results flagged for a closer look

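In 21 groups of 4 values (each enzyme's counts in either fraction, and its log2 changes by repeat), the gap of the farthest value to its neighbour was set against the whole range of the group. Chance picks out about 1 in 20 groups, or 1.05 here, and the groups share libraries. It picked out 2. The PHLac-low value of ENO1 in repeat 4, 106730.5, stood apart from 60309.7 to 67479.9 in the other repeats, with a gap of 0.846 of the range. The log2 change of HK2 in repeat 2, 0.31, stood apart from 0.59 to 0.64 in the others, with a gap of 0.848. Without repeat 2 the HK2 change was 0.61, and without repeat 4 the ENO1 change was 0.15.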

How the results depend on the processing

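Of the 7 listed enzymes that passed, 0 passed with no replicate block (0 higher and 0 lower). Upper-quartile scaling left 2, with 1 higher and 1 lower, and turned the log2 changes of TPI1 to -0.0063 and ENO1 to -0.0167, as well as PSAT1 to -0.0067 and CCT7 to -0.0041. This scaling rests on genes selected for a difference and lowered the median change of all listed genes from 0.25 to 0.02. Leaving out 1 repeat at a time gave 4 to 7 enzymes, of which 4 to 6 were higher and 0 to 1 lower, with 4 without repeat 1. GC content and length correction left 0 lower enzymes. Without the trend TPI1 did not pass (adjusted p = 0.0731). The pseudocount and the filter on low values moved no enzyme across the threshold. The number of enzymes that differed between repeats was 6 or 7 in all 9 alternatives run. Of the 23 neighbouring genes, 7 passed with no replicate block (6 higher, 1 lower), and upper-quartile scaling left 9 of 15 higher. Over all listed genes 3663 passed, 1135 with no replicate block and 2360 with upper-quartile scaling. Without the block the standard errors are larger, as for PKM (0.37 against 0.07). For the remaining differences the cause was not tested. The planned count tests were not run: low values were too few in 4 of the 8 libraries for an automatic check that they are whole reads.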
